A study of Mus musculus with 8 samples.

Results

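The genes described here are the mouse glycosyltransferases and carbohydrate sulfotransferases of the Golgi, chosen by name: the polypeptide GalNAc-transferases (Galnt), the N-glycan GlcNAc-transferases (Mgat), the core and I branching enzymes (Gcnt), the galactose and GlcNAc extension enzymes (B3galt, B3gnt, B4galt), the sialyltransferases (St3gal, St6gal, St8sia), the fucosyltransferases (Fut), the heparan sulphate enzymes (Ext, Hs2st, Hs3st, Hs6st) and the other carbohydrate sulfotransferases (Chst). The name pattern was applied to the 25948 genes of the authors' deposited table and matched 103. All 103 are among the 47937 gene IDs in the count tables. St8sia3, whose name fits the pattern, is in the count tables but not among the 103. One of the 103, St8sia3os, is a noncoding antisense gene that matched by name only and had no exonic read in any library. The cells were mouse pro-B cells, an early stage of B lymphocyte development, transformed by A-MuLV, the Abelson murine leukaemia virus. Their own EBF1, a transcription factor that specifies the B lineage, had been replaced by an introduced gene for EBF1 carrying a dTAG degron, named EBF1-dTAG_N. All 8 libraries carry that genotype. In 4 of them the cells had received the solvent DMSO, and in the other 4 they had received 0.5 µM dTAG-13, a small molecule that links the degron to a ubiquitin ligase so that the tagged protein is degraded. Both treatments lasted 6 h per the treatment label, although the titles call the DMSO libraries 0h. Without untagged cells among the libraries, an effect of loss of EBF1 and an effect of the compound cannot be told apart. The design text calls the 4 libraries of a group biological replicates, but nothing says whether they came from separate cultures or whether the cells were 1 clone, so the p-values measure the spread between these libraries, which may be technical.

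Glycosyltransferases build the sugar chains of proteins and lipids 1 residue at a time in the Golgi, each adding a given sugar from an activated donor to a given acceptor, and the sulfotransferases then place sulphate groups on the finished residues. The order is fixed by the acceptors: initiation or trimming comes first, branching and extension with galactose and N-acetylglucosamine (GlcNAc) follow, and sialic acid, fucose or sulphate cap or decorate the chain. In B cells these chains carry ligands of lectins such as CD22 and galectins, and the glycosaminoglycans bind cytokines and chemokines. RNA levels of the enzymes do not show the glycans themselves, which were not measured.

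Reads of stranded total RNA had been counted in the exons of each gene and over its full length, and what lay outside the exons was taken as intronic, a class made up largely of unspliced transcripts. Exonic reads per library ranged from 28982316 to 38999496. Levels are given as CPM, the count scaled to the normalised library size, so each is a share of the RNA, and fewer cells expressing a gene or less of its RNA per cell cannot be told apart. Called means an adjusted p below 0.05 in the edgeR quasi-likelihood test, adjusted over all genes tested by the Benjamini-Hochberg method. Ebf1 RNA itself was at 639, 608, 615 and 628 CPM with DMSO and at 816, 757, 723 and 773 CPM with dTAG-13 (log2 fold change 0.30 ± 0.04, where ± after a log2 fold change is its standard error throughout, edgeR adjusted p = 2.12e-07). Over the full gene the change was 0.13 and not called (edgeR adjusted p = 0.363). These reads can come from the introduced gene, and RNA does not show whether the protein was degraded. The 10 pro-B markers were detected, Dntt only at a mean of 1.25 CPM under DMSO, and their summed level was 2990 to 3050 CPM under DMSO and 2250 to 2390 CPM under dTAG-13. Of the markers of other cells, 7 of 10 T and NK, 5 of 10 myeloid and 4 of 6 erythroid genes had no read. The T and NK sum was 0.216 to 0.365 CPM under DMSO and 0.459 to 1.06 CPM under dTAG-13, the myeloid sum 0.162 to 0.449 and 0.485 to 1.12 CPM, and the erythroid sum at most 0.0783 CPM. The stromal sum of 63.8 to 68.7 CPM under DMSO and 93.9 to 99.3 CPM under dTAG-13 was nearly all Pecam1, at means of 66.3 and 96.4 CPM. The part of these shifts in the results was not tested.

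Of the 103 enzyme genes, 51 had enough exonic reads to test and 21 of these were called after 6 h, 10 lower and 11 higher. The largest falls were in B3gnt8, which extends poly-N-acetyllactosamine chains, at 4.03-fold lower, and in Galnt14, which starts mucin-type O-glycans, at 3.42-fold lower. The largest rises were in Fut10, a member of the fucosyltransferase family, at 2.63-fold higher, and in B3gnt5, which starts lacto-series glycolipids, at 2.36-fold higher. The most abundant enzyme RNA per length under DMSO, Chst3, which sulphates chondroitin, was 1.69-fold lower. The 8 role groups were formed by gene name, and their members need not act at the same step. In 5 of them at least 1 gene was called lower and 1 higher. These were the O-glycan initiators, N-glycan branching enzymes, extension enzymes, sialyltransferases and Chst sulfotransferases. Over all genes tested 14% were called lower and 14.3% higher, and how often other groups of such sizes hold both was not tested.

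Over all 12889 genes tested, 28.3% were called, with 14% lower and 14.3% higher. Among the 51 enzyme genes tested, 41.2% were called, 19.6% lower and 21.6% higher. The median absolute log2 fold change was 0.18 among these genes and 0.14 over all genes tested. A change of at least 2-fold that was called occurred in 4 enzyme genes, B3gnt8, Galnt14, Fut10 and B3gnt5, where 2.9% of all genes tested had one. An unadjusted p below 0.05 was found for 29 of the 51. In the authors' deposited table, 19 enzyme genes had an adjusted p below 0.05 for exonic reads, and all 19 were among the 21 called here and had the same direction. The pair called here and not there was Hs2st1 and B4galt3.

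**Figure D1:**
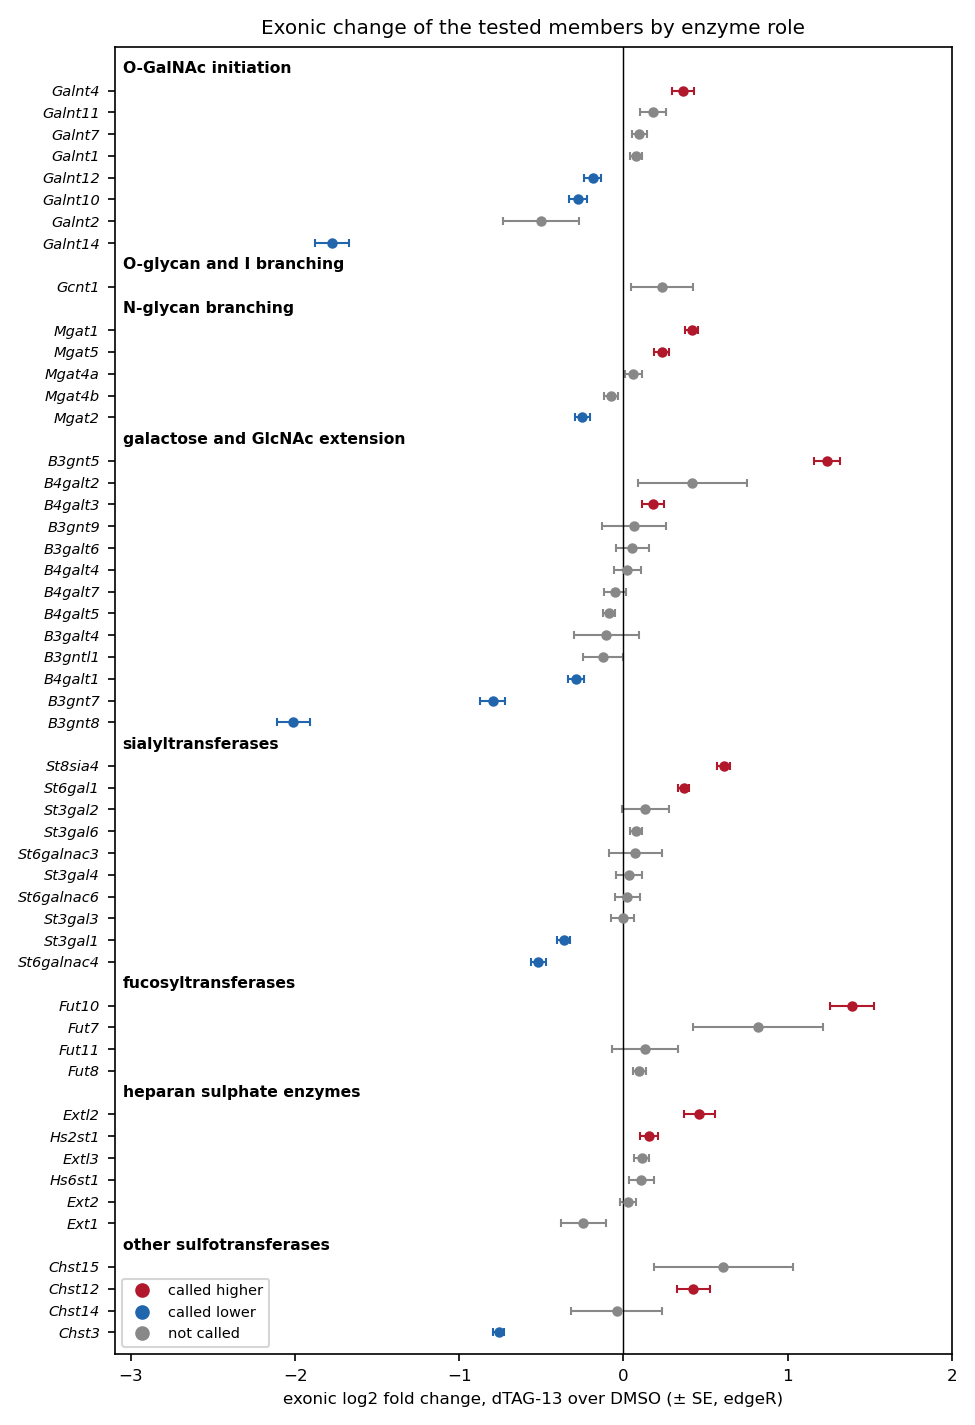
Exonic log2 fold change of dTAG-13 over DMSO (x axis) for the 51 tested enzyme genes, grouped by role, with points for edgeR estimates, bars for their standard errors and colours for the calls. B3gnt8 and Galnt14 lie farthest to the left and Fut10 and B3gnt5 farthest to the right, and the other genes lie closer to 0.

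The other 52 genes missed the filter on low counts, with 0 to 55 exonic reads over all 8 libraries, and 37 of them had no exonic read at all. Among those with most reads were B3gnt3, with 55 reads in all, B3gnt4 with 30, St6galnac2 with 27, Fut1 with 23, Extl1 with 18 and B3gnt6 with 12. The genes without an exonic read included every Hs3st gene, whose products place the rarest sulphate of heparan sulphate, Gcnt2, which makes the I antigen, and Mgat3, which adds the bisecting GlcNAc of N-glycans. None of these 52 genes enters a count of exonic change.

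EBF1 binds a short palindrome with the core CCCNNGGG. The core was searched in RefSeq promoters (GRCm38.p6, 250 bases before to 50 bases after each annotated start). It reads the same on both strands, so 1 search covers both. A RefSeq promoter was found for 80 of the 103 genes, with 108 promoters in all, since a gene can have several starts. The core was in 13.7% of all 32851 promoters and in 18.5% of the enzyme promoters (20 of 108). It was in 3 of 8 promoters of genes called lower (B3gnt8, Chst3 and Galnt10), in 1 of 14 promoters of genes called higher (Mgat1) and in 4 of 33 promoters of genes tested and not called. The longer form of the palindrome, the core preceded by T and followed by A, was in 0.904% of all promoters and in 4 of the enzyme promoters, those of B4galt4, Chst3, Gcnt7 and Hs3st4. Binding of EBF1 was not measured in these libraries, and a match of letters is not a binding site. The upstream sequences of the called genes with a match are shown because they hold the letters of the core, and of these genes only Chst3 held the longer form. They run 5′ to 3′ on the gene's strand and end at the base before the start, with core matches in capitals.
Chst3, chr10:60219261-60219510, minus strand: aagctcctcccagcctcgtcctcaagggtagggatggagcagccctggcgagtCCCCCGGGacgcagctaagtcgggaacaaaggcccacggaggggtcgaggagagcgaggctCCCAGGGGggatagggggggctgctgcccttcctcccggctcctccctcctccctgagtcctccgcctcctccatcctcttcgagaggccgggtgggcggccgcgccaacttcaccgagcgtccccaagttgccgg
Galnt10, chr11:57645192-57645441, plus strand: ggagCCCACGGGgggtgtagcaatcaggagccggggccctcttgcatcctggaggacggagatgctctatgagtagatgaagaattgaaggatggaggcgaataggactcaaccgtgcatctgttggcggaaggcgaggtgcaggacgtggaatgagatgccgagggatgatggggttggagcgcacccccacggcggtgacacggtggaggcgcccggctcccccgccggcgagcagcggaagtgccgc
Mgat1, chr11:49243941-49244190, plus strand: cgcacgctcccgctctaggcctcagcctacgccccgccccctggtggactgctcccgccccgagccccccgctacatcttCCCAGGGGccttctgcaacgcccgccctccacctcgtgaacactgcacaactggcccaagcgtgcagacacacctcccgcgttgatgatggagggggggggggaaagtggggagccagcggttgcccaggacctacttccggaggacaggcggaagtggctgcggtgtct
In Chst3 the matches began 197 and 136 bases before the start, in Galnt10 246 bases before it and in Mgat1 170 bases before the first of its 3 RefSeq starts. The promoters of the other Mgat1 starts held no core match. The upstream window of B3gnt8 overlaps an exon of another annotated transcript of that gene, so only the 28 bases around its match, which began 59 bases before the start, are shown.
B3gnt8, chr7:25627555-25627582, plus strand: tcctcccggcCCCAAGGGccctcctgcc
The promoters of the other called genes that were searched held no core match: B3gnt7, B4galt1, Galnt14, Mgat2 and St6galnac4, called lower, and B3gnt5, B4galt3, Chst12, Extl2, Hs2st1, Mgat5, St6gal1 and St8sia4, called higher. Fut10, Galnt4, Galnt12 and St3gal1 were not searched.

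The Galnt enzymes attach N-acetylgalactosamine to serine or threonine and so start mucin-type O-glycans. Of 18 such genes, 8 were tested, 3 were called lower and 1 was called higher. Galnt14 (ENSMUSG00000024064.13, chr17:73493228-73710453, minus strand, GRCm38) was at 16.7, 15.8, 18.9 and 14.95 CPM with DMSO and 4.27, 4.98, 5.53 and 4.60 CPM with dTAG-13. All 4 treated libraries were below all 4 controls, at -1.78 ± 0.10 (SE) on the log2 scale (edgeR adjusted p = 1.56e-13). Its intronic reads were at 442, 412, 454 and 471 CPM with DMSO and 110.0, 125, 122 and 128 CPM with dTAG-13, again without overlap, and the intronic log2 fold change was -1.87 ± 0.07 (edgeR adjusted p = 4.32e-16). Galnt14 exonic level per kb of exon went from rank 32 to rank 41 among the enzyme genes.

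Galnt10, a GalNAc-transferase that prefers peptides already glycosylated, was at 36.6, 37.1, 32.7 and 37.2 CPM with DMSO and 31.3, 29.3, 28.4 and 29.4 CPM with dTAG-13. The groups did not overlap, and the log2 fold change was -0.28 ± 0.06 (edgeR adjusted p = 0.000313). Its intronic reads changed by -0.24 ± 0.06 (edgeR adjusted p = 0.00900), a call lost without DMSO replicate 3 (edgeR adjusted p = 0.0549) or without dTAG-13 replicate 1 (0.0576). Galnt12, another initiator of mucin-type O-glycans, was lower by 1.14-fold (edgeR adjusted p = 0.00714), with 40.2 ± 2.15 CPM under DMSO and 35.3 ± 1.60 CPM under dTAG-13 (SD, n = 4). The Galnt12 groups did not overlap, its intronic change of -0.07 ± 0.08 was not called (edgeR adjusted p = 0.604), and over the full gene its change of -0.14 was not called (edgeR adjusted p = 0.0936).

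Galnt4 was the 1 initiator called higher, at 16.3, 18.3, 18.6 and 17.6 CPM with DMSO and 21.7, 24.0, 21.7 and 23.7 CPM with dTAG-13. Its groups did not overlap (log2 fold change 0.36 ± 0.07, edgeR adjusted p = 0.000131). Galnt4 shares 8.25% of its exon bases with Poc1b on the same strand, whose own exonic log2 fold change was 0.07 ± 0.05 and not called. Galnt1 and Galnt7, both broadly expressed initiators, had log2 fold changes of 0.08 ± 0.04 and 0.10 ± 0.05 and were not called (edgeR adjusted p = 0.139 and 0.125). Galnt2, also broadly expressed, was called in intronic reads only, at 503, 474, 434 and 463 CPM with DMSO and 426, 362, 398 and 402 CPM with dTAG-13 (log2 fold change -0.24 ± 0.07, edgeR adjusted p = 0.0142). That call was lost without DMSO replicate 1, DMSO replicate 4 or dTAG-13 replicate 2 (highest edgeR adjusted p = 0.0984). The exons of Galnt2 overlap those of the same-strand gene Gm20388 over 90.0% of their length in GENCODE vM21, so its exonic level of 1.19 to 2.76 CPM is uncertain. Intronic counts were whole-gene minus exon counts, and how reads of shared exons were counted is not given. The intronic call of Galnt2 is therefore uncertain too. Over the full gene Galnt2 was called lower at -0.26 (edgeR adjusted p = 0.00316).

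The Mgat enzymes add the GlcNAc branches of N-glycans, with Mgat1 opening the route to hybrid and complex chains and Mgat2 and Mgat5 adding further branches. Of 8 genes, 5 were tested, 1 was called lower and 2 were called higher. Mgat1 (ENSMUSG00000020346.16, chr11:49244191-49263030, plus strand, GRCm38) was at 68.9, 68.4, 66.1 and 71.4 CPM with DMSO and 94.6, 90.5, 93.4 and 88.1 CPM with dTAG-13. Every treated library exceeded every control, at 0.42 ± 0.04 on the log2 scale (edgeR adjusted p = 4.06e-09), and the intronic change was 0.47 ± 0.09 (edgeR adjusted p = 0.000480). Mgat2 moved the other way, at 91.3, 90.7, 86.9 and 85.1 CPM with DMSO and 79.5, 76.1, 75.0 and 66.6 CPM with dTAG-13. Its groups did not overlap either (log2 fold change -0.25 ± 0.05, edgeR adjusted p = 0.000136). The 2614 exon bases of Mgat2 fill its whole span (chr12:69184157-69186770), so it had no intronic read. Mgat5 was at 43.5, 40.9, 41.6 and 42.6 CPM with DMSO and 48.8, 48.7, 52.0 and 48.6 CPM with dTAG-13, without overlap (log2 fold change 0.23 ± 0.04, edgeR adjusted p = 0.000185). Its intronic change of 0.16 ± 0.06 was not called here (edgeR adjusted p = 0.0807) and was called in the authors' deposited table, at 0.16 with an adjusted p of 0.0403. Mgat4a and Mgat4b, which add another branch, were at 0.06 ± 0.05 and -0.07 ± 0.04 on the log2 scale and were not called.

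**Figure D2:**
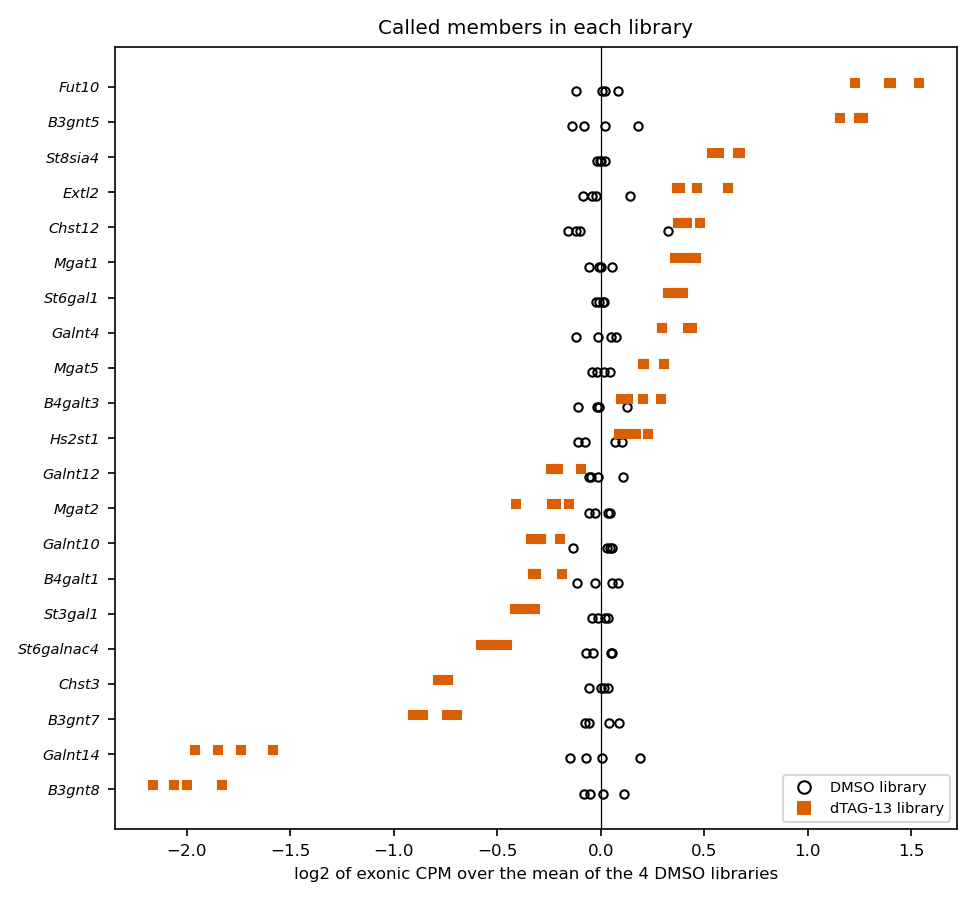
Exonic CPM of each of the 21 called enzyme genes in each library, as log2 of the value over the mean of the 4 DMSO libraries (x axis), with open circles for DMSO and squares for dTAG-13. The groups are apart in every gene shown except B4galt3 and Hs2st1, where treated and control libraries overlap.

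The extension enzymes lengthen chains with galactose and GlcNAc, and repeats of that pair form poly-N-acetyllactosamine. Of 21 genes, 13 were tested, 3 were called lower and 2 were called higher. B3gnt8 (ENSMUSG00000059479.7, chr7:25626654-25635100, plus strand, GRCm38), which adds GlcNAc to branched N-glycans, was at 15.3, 15.1, 17.2 and 16.01 CPM with DMSO and 3.97, 3.55, 4.47 and 3.80 CPM with dTAG-13. The groups were far apart, and the log2 fold change was -2.01 ± 0.10 (edgeR adjusted p = 6.99e-15). B3gnt8 shares 18.1% of its exon bases with Bckdha on the opposite strand, which was itself called lower at -0.46 ± 0.07 (edgeR adjusted p = 1.21e-05). How the counting treated strand is not given in the sources used here. Too few intronic reads of B3gnt8 were present for the edgeR filter, and the authors' deposited table lists an intronic log2 fold change of -3.55 with an adjusted p of 0.00233. Its 56 intronic reads gave 1.47, 0.119, 1.76 and 1.39 CPM with DMSO and 0, 0.158, 0 and 0.0797 CPM with dTAG-13. The groups overlapped, with DMSO replicate 2 below dTAG-13 replicate 2.

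B3gnt7, which adds GlcNAc in poly-N-acetyllactosamine and keratan sulphate chains, was at 20.3, 18.1, 18.3 and 19.6 CPM with DMSO and 11.8, 10.5, 11.4 and 10.2 CPM with dTAG-13. Its groups did not overlap (log2 fold change -0.80 ± 0.08, edgeR adjusted p = 4.79e-09), and it had 14 intronic reads in all. B3gnt7 shares 12.6% of its exon bases with Gm28626 on the opposite strand. B4galt1, a widely used galactosyltransferase and the catalytic part of lactose synthase, was at 86.5, 81.8, 77.2 and 88.3 CPM with DMSO and 73.2, 67.1, 66.4 and 66.4 CPM with dTAG-13. The decrease of 1.22-fold was called (edgeR adjusted p = 1.73e-05), and intronic B4galt1 was lower as well at -0.35 ± 0.06 (edgeR adjusted p = 0.000191). None of its exon bases overlap another gene in GENCODE vM21.

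B3gnt5 (ENSMUSG00000022686.14, chr16:19760208-19772753, plus strand, GRCm38), the GlcNAc-transferase that commits lactosylceramide to lacto-series glycolipids, was at 10.5, 9.39, 8.77 and 8.41 CPM with DMSO and 22.3, 22.0, 22.2 and 20.7 CPM with dTAG-13. Every treated library was above every control, at 1.24 ± 0.08 on the log2 scale (edgeR adjusted p = 1.32e-12). Intronic B3gnt5 was at 7.26, 2.26, 3.91 and 2.26 CPM with DMSO and 7.98, 7.76, 10.4 and 7.41 CPM with dTAG-13, a log2 fold change of 1.105 ± 0.29 (edgeR adjusted p = 0.00771), with the control DMSO replicate 1 close to the treated range. B4galt5, which makes the lactosylceramide that B3gnt5 uses, was not called at -0.09 ± 0.04 (edgeR adjusted p = 0.0850).

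B4galt3 was called higher at 0.18 ± 0.07 (edgeR adjusted p = 0.0398), with 21.4 ± 1.46 CPM under DMSO and 24.3 ± 1.47 CPM under dTAG-13 (SD, n = 4). Its groups overlapped, and the call was lost when DMSO replicate 1, 2 or 3 or dTAG-13 replicate 2 or 3 was left out (highest edgeR adjusted p = 0.163). It shares 14.5% of its exon bases with Ppox on the opposite strand, whose log2 fold change of -0.07 ± 0.07 was not called. B3gnt2, a main poly-N-acetyllactosamine synthase, had 12 exonic reads in all and was not tested there, and 66.0% of its exon bases are shared with other genes, most with Gm28048 on the same strand. Its intronic reads were at 4.20, 5.48, 6.05 and 8.79 CPM with DMSO and 12.5, 9.27, 9.44 and 9.32 CPM with dTAG-13 and were called higher (log2 fold change 0.71 ± 0.21, edgeR adjusted p = 0.0211). That call was lost without DMSO replicate 1, DMSO replicate 2 or dTAG-13 replicate 1 (highest edgeR adjusted p = 0.0774). With its exons shared, the exonic and the intronic counts of B3gnt2 are both uncertain.

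Sialyltransferases cap chains with sialic acid. Of 19 genes, 10 were tested, 2 were called lower and 2 were called higher. St8sia4 (ENSMUSG00000040710.10, chr1:95587682-95667571, minus strand, GRCm38), a polysialic acid synthase, was at 112, 114, 113 and 115 CPM with DMSO and 181, 169, 165 and 179.7 CPM with dTAG-13. The groups were well apart, at 0.61 ± 0.04 on the log2 scale (edgeR adjusted p = 1.06e-12), and intronic reads rose by 0.53 ± 0.07 (edgeR adjusted p = 2.05e-06). St6gal1, which sialylates N-glycans and makes the ligand of CD22, was at 113, 110.2, 111 and 114 CPM with DMSO and 145, 140.4, 148 and 145 CPM with dTAG-13. Again no treated library fell among the controls (log2 fold change 0.37 ± 0.04, edgeR adjusted p = 5.40e-09). The intronic log2 fold change of St6gal1 was 0.16 ± 0.06, not called in edgeR (adjusted p = 0.0849) and called with DESeq2 (adjusted p = 0.0258).

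St6galnac4, which adds sialic acid to the GalNAc of short sialylated O-glycans, was at 68.5, 70.0, 74.4 and 74.6 CPM with DMSO and 48.2, 52.6, 50.7 and 49.5 CPM with dTAG-13. The groups did not overlap (log2 fold change -0.52 ± 0.04, edgeR adjusted p = 3.37e-10), and intronic reads were lower at -0.43 ± 0.11 (edgeR adjusted p = 0.00473). St3gal1, which caps core O-glycans with sialic acid, was at 62.3, 63.7, 64.4 and 61.1 CPM with DMSO and 50.4, 47.1, 49.7 and 48.1 CPM with dTAG-13. Its treated libraries were all below the controls (log2 fold change -0.36 ± 0.04, edgeR adjusted p = 1.08e-07). The intronic change of St3gal1, -0.47 ± 0.14, was called (edgeR adjusted p = 0.0219) and lost without DMSO replicate 3, DMSO replicate 4 or dTAG-13 replicate 1 (highest edgeR adjusted p = 0.102). St3gal6, the most abundant sialyltransferase RNA per length, had log2 fold changes of 0.08 ± 0.04 in exons and -0.16 ± 0.07 in introns, neither called (edgeR adjusted p = 0.127 and 0.112). Over the full gene it was at -0.04 and not called (edgeR adjusted p = 0.646), and its intronic reads were called lower without DMSO replicate 2 (-0.20, edgeR adjusted p = 0.0472). It shares 26.0% of its exon bases with Dcbld2 on the opposite strand. St3gal2, St3gal3, St3gal4, St6galnac3 and St6galnac6 were not called.

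Fucosyltransferases add fucose to the chain or its core. Of 7 genes, 4 were tested and 1 was called. Fut10 (ENSMUSG00000046152.16, chr8:31187331-31261738, plus strand, GRCm38) was at 2.56, 2.94, 2.82 and 2.79 CPM with DMSO and 7.29, 6.51, 8.05 and 7.34 CPM with dTAG-13. The treated libraries were all far above the controls, at 1.39 ± 0.13 on the log2 scale (edgeR adjusted p = 2.73e-09). Intronic Fut10 was at 10.8, 14.7, 15.3 and 12.5 CPM with DMSO and 26.4, 30.9, 39.1 and 36.4 CPM with dTAG-13, without overlap (log2 fold change 1.32 ± 0.14, edgeR adjusted p = 1.13e-07). Fut8, which adds the core fucose of N-glycans and was at 11.7 ± 0.454 CPM per kb of exon under dTAG-13 where Fut10 was at 1.46 ± 0.126 (SD, n = 4), had a log2 fold change of 0.10 ± 0.04 and was not called (edgeR adjusted p = 0.0705). Fut7, which makes selectin ligands, was at 0.243 to 0.587 CPM under DMSO and 0.544 to 0.649 CPM under dTAG-13 and was not called (edgeR adjusted p = 0.130).

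The Ext enzymes polymerise heparan sulphate, and the Hs sulfotransferases sulphate it. Of 16 genes, 6 were tested, none was called lower and 2 were called higher. Extl2, an exostosin-like transferase that acts at the linkage region of glycosaminoglycans, was at 9.30, 8.19, 7.93 and 8.30 CPM with DMSO and 12.9, 10.9, 11.6 and 11.0 CPM with dTAG-13. The groups did not overlap (log2 fold change 0.46 ± 0.09, edgeR adjusted p = 0.000345), and its intronic change of 0.25 ± 0.15 was not called. Hs2st1, which sulphates uronic acids of heparan sulphate, was called at 0.15 ± 0.06 (edgeR adjusted p = 0.0371), with 33.6 ± 2.44 CPM under DMSO and 37.3 ± 1.57 CPM under dTAG-13 (SD, n = 4). Its groups overlapped, the call was lost without DMSO replicate 2 or 4 or dTAG-13 replicate 1 or 2 (highest edgeR adjusted p = 0.136), and over the full gene the change was 0.0024 (edgeR adjusted p = 0.99). Ext1, one subunit of the polymerase, was called lower in intronic reads, at 212, 178, 176 and 191 CPM with DMSO and 157, 152, 122 and 153 CPM with dTAG-13 (log2 fold change -0.37 ± 0.08, edgeR adjusted p = 0.00101). Its exonic change of -0.24 ± 0.14 was not called (edgeR adjusted p = 0.211), while over the full gene the change of -0.37 was called (edgeR adjusted p = 0.00576). Ext2, the other subunit, had log2 fold changes of 0.03 ± 0.05 in exons and 0.06 ± 0.06 in introns and was not called in either.

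Among the 11 other carbohydrate sulfotransferases, 4 were tested, 1 was called lower and 1 was called higher. Chst3 (ENSMUSG00000057337.13, chr10:60181532-60219260, minus strand, GRCm38), which sulphates the GalNAc of chondroitin, was at 327, 311, 331 and 323 CPM with DMSO and 188, 194, 194 and 187 CPM with dTAG-13. The groups were far apart relative to their spread, at -0.76 ± 0.04 on the log2 scale (edgeR adjusted p = 1.56e-15). Intronic Chst3 was at 1008, 1035, 1011 and 1033 CPM with DMSO and 697, 774, 732 and 707 CPM with dTAG-13, a log2 fold change of -0.49 ± 0.07 (edgeR adjusted p = 4.21e-06). Chst12, which sulphates chondroitin at another position of the same sugar, was at 11.6, 8.67, 8.53 and 8.30 CPM with DMSO and 12.4, 12.02, 12.96 and 12.3 CPM with dTAG-13. DMSO replicate 1 lay above the other controls and just below the treated libraries, and the change was called (log2 fold change 0.43 ± 0.10, edgeR adjusted p = 0.00159). Chst15, which adds a further sulphate to chondroitin, was called higher in intronic reads, at 0.113, 1.19, 1.69 and 0.696 CPM with DMSO and 4.66, 2.77, 2.80 and 4.86 CPM with dTAG-13 (log2 fold change 1.97 ± 0.44, edgeR adjusted p = 0.00213). Its exonic level of 0.157 to 0.800 CPM was low, and the exonic log2 fold change of 0.61 ± 0.42 was not called (edgeR adjusted p = 0.325). Over the full gene the change of 1.38 was called (edgeR adjusted p = 0.00183). Chst15 shares 17.9% of its exon bases with Gm10584 on the opposite strand.

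In intronic reads 16.8% of the 11229 genes tested were called, 8.5% lower and 8.26% higher. Of the enzyme genes, 46 were tested there, 8 were called lower and 6 higher, which is 30.4% of those tested. Of the 17 genes called in exons and tested in introns, 16 had the same sign in both, 10 were also called in introns in the same direction and 0 in the opposite one. The 10 were Chst3, Galnt14, Galnt10, B4galt1, St3gal1 and St6galnac4, called lower in both, and Mgat1, B3gnt5, St8sia4 and Fut10, called higher in both. Exonic and intronic reads of a gene come from the same libraries. The matching shares over all genes called in exons were not computed, so these counts do not set the enzyme genes apart. The 17 calls in the authors' deposited table for intronic reads included the 14 made here, with the same direction, and B3gnt8, St6gal1 and Mgat5.

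Whether the exonic change differed from the intronic change was tested in 1 model over both read classes. Over all genes 0.289% of the 10026 tested were called. Of the enzyme genes 42 were tested and 0 were called by edgeR, while 6 had an unadjusted p below 0.05. Chst3 had the smallest p, with an exonic minus intronic difference of -0.27 ± 0.07 on the log2 scale (edgeR adjusted p = 0.118). With no filter on low counts Chst3 was called in this test (edgeR adjusted p = 0.0376). St3gal6 and St6gal1 followed, with differences of 0.24 ± 0.08 and 0.20 ± 0.07 (edgeR adjusted p = 0.317 and 0.336).

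**Figure D3:**
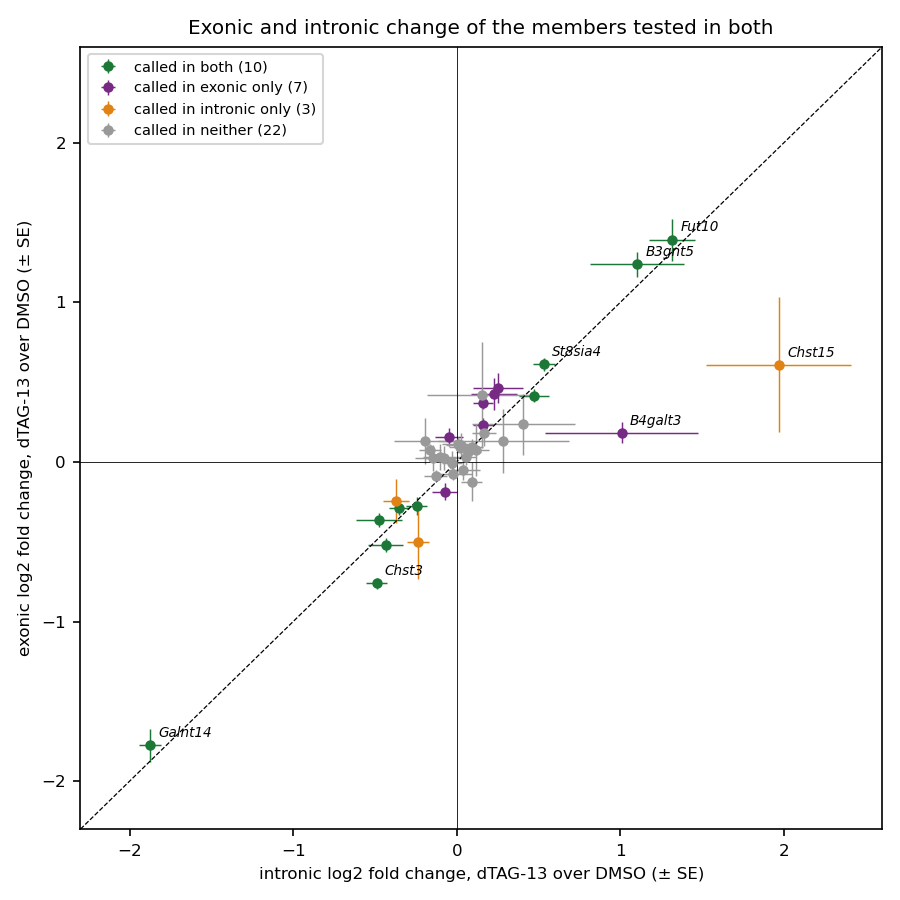
Exonic log2 fold change (y axis) against intronic log2 fold change (x axis) of dTAG-13 over DMSO for the 42 enzyme genes tested in both, with bars for standard errors, colours for the calls and a dashed line of equality. Galnt14 at the lower left and Fut10 and B3gnt5 at the upper right lie near the line, while Chst15 and B4galt3 lie to its right with wide intronic errors.

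Levels were compared between genes only as exonic CPM per kb of exon, with exon lengths from GENCODE vM21. Under DMSO, Chst3 was the most abundant enzyme RNA at 49.7 ± 1.31 CPM per kb (SD, n = 4), above St3gal6 at 37.2 ± 1.11 and Mgat2 at 33.8 ± 1.14, and the libraries of these neighbours did not overlap. Mgat4b at 28.1 ± 0.583 and B4galt5 at 27.3 ± 0.925 overlapped each other. St6gal1 at 22.8 ± 0.306, Galnt1 at 20.5 ± 0.387 and B4galt1 at 19.7 ± 1.18 came next, followed by Galnt12 at 17.6 ± 0.939 and Mgat1 at 14.5 ± 0.458. In that run B4galt1 overlapped both Galnt1 and Galnt12, and the other neighbours did not overlap. Under dTAG-13 the order of the leading genes changed. St3gal6 was first at 39.2 ± 1.03 CPM per kb, St6gal1 moved from rank 6 to rank 2 at 29.4 ± 0.613, and Chst3 was at rank 3 with 29.3 ± 0.570, overlapping St6gal1. These levels depend on the exon lengths, while the annotation release behind the counts is not given. For St3gal6 and St6gal1 the gene version in GENCODE vM21 differs from that in the counts. St3gal6 also shares 26.0% of its exon bases with Dcbld2. The spread between libraries does not cover such errors. The levels depend on the reads counted in the library total as well. Leaving out the predicted genes Gm26917 and Gm42418, which are known to overlap ribosomal RNA sequence and took 25.7% to 29.3% of exonic reads, raised Chst3 under DMSO to 68.7 CPM per kb.

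**Figure D4:**
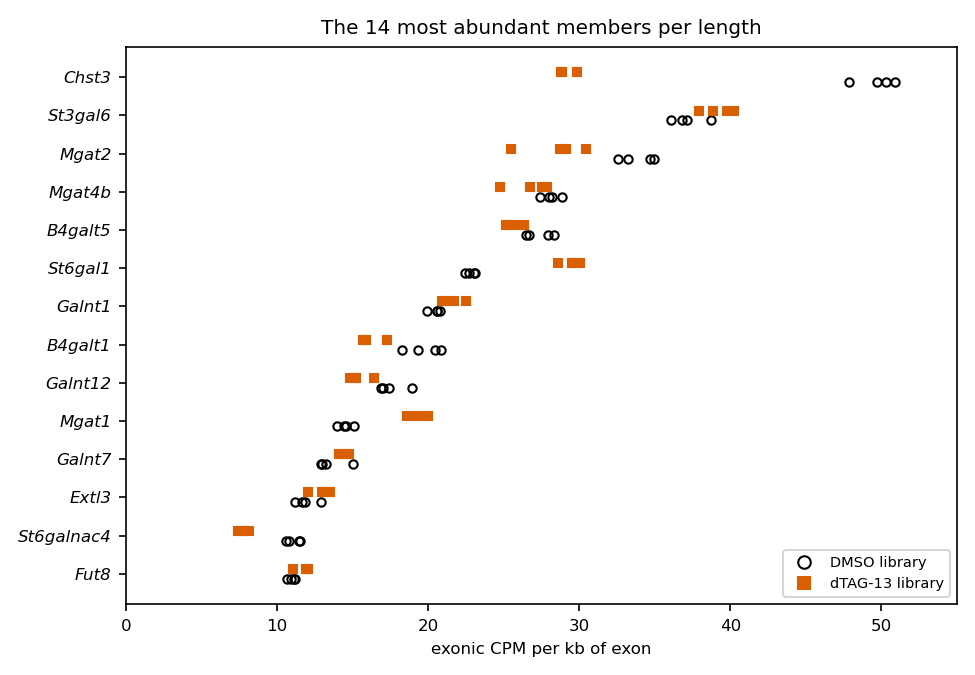
Exonic CPM per kb of exon (x axis, starting at 0) of the 14 most abundant enzyme genes in each library, with open circles for DMSO and squares for dTAG-13. Chst3 stands first under DMSO at 47.8 to 50.9 and overlaps St6gal1 under dTAG-13, where St3gal6 stands first.

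Glycan assembly also needs transferases outside the chosen families, sugar donors, Golgi transporters and trimming enzymes. Such genes, and lectins and glycan carriers, were examined as 5 lists in exonic reads beside the background of 28.3%. The lists were chosen with earlier results of these data known, so their shares of calls are not an unbiased comparison with that background. Of 48 other glycosyltransferases and sulfotransferases, 31 were tested, 7 were called lower and 8 higher, with a median log2 fold change of 0.06. Csgalnact2, which starts and extends chondroitin, was lower at -0.79 ± 0.05, with 46.1 ± 1.85 CPM under DMSO and 26.6 ± 1.39 CPM under dTAG-13 (SD, n = 4, edgeR adjusted p = 2.21e-12). Ggta1, which makes the alpha-galactose epitope, and Lfng, the Fringe enzyme that extends O-fucose on Notch, were higher at 0.68 ± 0.05 and 0.46 ± 0.04 (edgeR adjusted p = 5.45e-11 and 9.22e-11). Among the chondroitin enzymes of that list, chosen after their values were seen, the polymerase gene Chsy1 was lower at -0.51 ± 0.05 (edgeR adjusted p = 5.13e-09). Chpf2, a polymerising cofactor, and Ust, which sulphates uronic acid, were higher at 0.43 ± 0.05 and 0.48 ± 0.08 (edgeR adjusted p = 1.43e-07 and 7.66e-05).

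Of 28 genes for nucleotide sugar and sulphate donor supply, 26 were tested, 1 was called lower and 2 higher, 11.5% of those tested. Ugp2, which makes UDP-glucose, was higher at 0.64 ± 0.05 (edgeR adjusted p = 1.75e-10), and Galk1, which phosphorylates galactose, was lower at -0.23 ± 0.05 (edgeR adjusted p = 0.00157). Of 15 Golgi transporters, 14 were tested and 1 was called, Slc35a4, a nucleotide sugar transporter family member, at -0.12 ± 0.04 (edgeR adjusted p = 0.0308). That call was lost without DMSO replicate 2 or 4 or dTAG-13 replicate 2 or 4 (highest edgeR adjusted p = 0.118) and over the full gene (0.201). The UDP-galactose transporter Slc35a2 and the sulphate donor transporter Slc35b2 were at 0.19 ± 0.07 and -0.12 ± 0.05, not called (edgeR adjusted p = 0.0532 and 0.0708). Slc35a2 was called without DMSO replicate 1 (edgeR adjusted p = 0.0279) or 3 (0.0442), with no filter on low counts (0.0484) and over the full gene (0.0495). Slc35b2 was called without DMSO replicate 3 (edgeR adjusted p = 0.0293) or 4 (0.0478) or dTAG-13 replicate 1 (0.0481).

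Of 27 genes for glycan trimming and removal, 20 were tested, 1 was called lower and 8 higher. The 1 called lower was Neu1, the lysosomal sialidase, at 55.5 ± 2.56 CPM under DMSO and 30.0 ± 2.50 CPM under dTAG-13 (SD, n = 4, log2 fold change -0.89 ± 0.05, edgeR adjusted p = 5.77e-13). The mannosidases Man1a2 and Man1a, which trim N-glycans before Mgat1 acts, were higher at 0.26 ± 0.04 and 0.29 ± 0.05 (edgeR adjusted p = 7.74e-06 and 1.14e-05). Over the full gene Man1a was at 0.17 and not called (edgeR adjusted p = 0.08). Of 25 lectins and glycan carriers, 16 were tested, 5 were called lower and 9 higher, with a median log2 fold change of 0.25. Selplg, a mucin-like selectin ligand, and Cd93, a C-type lectin-like receptor, were higher at 0.54 ± 0.04 and 0.54 ± 0.03 (edgeR adjusted p = 9.21e-12 and 5.05e-13). Lgals9, a galectin, was lower at -0.53 ± 0.04 (edgeR adjusted p = 3.22e-12).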

How the data were processed

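Total RNA of 8 libraries, 4 per treatment, was sequenced after ribosomal RNA depletion with a stranded kit, per the labels' protocols. The authors deposited raw counts per gene over exons and over whole genes, per the design text, and a comparison table that holds, per the file headers, a log2 fold change, its standard error and raw and adjusted p-values for each read class. Whether its fold changes were shrunken is not given in the sources used here. The builds listed in the submitters' processing notes are GRCm38.p4 and mm10, and the tools are featureCounts, Subread 2.0.0, STAR 2.7.4a, DESeq2, deepTools 3.3.2 and SAMtools 1.10. The role of each tool, the strand setting and the annotation release are not given in the sources used here, so reads of overlapping genes are uncertain.

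Intronic counts were whole-gene minus exon counts, with 0 negative values. Both classes went through edgeR 4.0.16 under R 4.3.3 (filterByExpr with a minimum count of 10 and a total of 15, TMM factors, quasi-likelihood F test, treatment as the only term, all 8 libraries), with Benjamini-Hochberg adjustment over all genes at 0.05. CPM are relative to TMM-scaled totals of the genes kept. Standard errors are of the fitted log2 fold change. The exonic and intronic changes were compared in 1 edgeR model over 16 columns, with the library as a block. The median standard error was 0.07 for exonic, 0.11 for intronic and 0.12 for differences. The scripts were tested on simulated data. No pair of libraries differed by less than sampling noise (chi-square over its degrees of freedom 4.73 to 13.4).

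The members and the gene lists were chosen with earlier results of these data known. Named genes were all called members, the 10 with the highest exonic level per length, up to 6 that missed the filter, up to 3 per pathway list by smallest p, and Ebf1, and 1 gene that this rule names is not reported here. Lengths and overlaps came from GENCODE vM21 (GRCm38), where 103 members were found by gene ID, 78 of them with the same version. Alternatives were DESeq2 1.42.0, its size factors, other filters, a replicate block, a test against 1.5-fold, whole-gene counts, leaving out libraries, and totals without Gm26917 and Gm42418.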

Additional observations from a re-analysis of the deposited data

Results flagged for a closer look

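In 84 groups of 4 libraries (exonic and intronic CPM of the called genes), 6 held a library set apart from the other 3 by Dixon's criterion, where chance gives about 1 in 20. B4galt1 exonic CPM was 73.2 in dTAG-13 replicate 1 and 66.4 to 67.1 in the other treated libraries. Chst12 exonic CPM was 11.6 in DMSO replicate 1 and 8.30 to 8.67 in the other controls, and Galnt10 exonic CPM was 32.7 in DMSO replicate 3 and 36.6 to 37.2 in the others. Mgat5 exonic CPM was 52.0 in dTAG-13 replicate 3 and 48.6 to 48.8 in the others. Intronic CPM of B3gnt2 was 12.5 in dTAG-13 replicate 1 and 9.27 to 9.44 in the others, and intronic Ext1 was 122 in dTAG-13 replicate 3 and 152 to 157 in the others. The B3gnt2 call was lost without that library (edgeR adjusted p = 0.0774), and the calls of the other 5 were kept without theirs.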

How the results depend on the processing

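No called gene changed direction under any alternative run. Tested against a change of 1.5-fold, 4 enzyme genes were called lower and 2 higher in exons, and 1 lower and 2 higher in introns, with 403 genes called in exons and 279 in introns over all genes. With no filter on low counts, 1 enzyme gene (Chst3) and 110 genes in all were called in the difference between exonic and intronic change. Leaving out each library in turn gave 11 to 25 genes called in that difference, 9 to 12 enzyme genes called higher and 10 called lower in exons, 6 to 10 lower and 5 to 6 higher in introns, and 0 to 3 Golgi transporters called. Same-numbered libraries correlated at -0.0237 to 0.0584 in their deviations from the group means, and differently numbered ones at -0.0875 to 0.11. These values show no pairing by replicate number, but they cannot tell whether the libraries were paired in the experiment. With a replicate block the Golgi transporters had 2 calls, with Slc35a2 added (edgeR adjusted p = 0.0421), and the other counts of calls stayed within 1.5 times. With the longer motif 3.7% of enzyme promoters matched in place of 18.5%. Totals without Gm26917 and Gm42418 moved all 10 levels per length upward, which follows from dividing by a smaller total. The alternatives for pathway lists by left-out library and for levels per length were chosen after seeing the data. The causes of the other shifts were not tested. Low counts limit what can be said of the 52 genes that missed the exonic filter and of genes with few intronic reads such as B3gnt8 and B3gnt7.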

Other observations

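Some enzyme genes had far more intronic than exonic reads, chosen here after their values were seen. The reads were not scaled to intron length, which differs between genes, so the counts do not rank one gene against another. St6galnac3, a sialyltransferase of O-glycans and glycolipids, had 987 exonic and 46572 intronic reads over the 8 libraries. None of its exon bases overlap another gene in GENCODE vM21, although genes such as A530083M17Rik lie on the same strand within its introns. Its exonic level per kb ranked 48 among the enzyme genes under DMSO, while its intronic level was 464 to 575 CPM under DMSO and 490 to 615 CPM under dTAG-13. Ext1 had 1454 exonic and 14512 intronic reads, and Galnt2 had 515 and 37383, with the shared exons described above. Chst3 had 71576 exonic and 75836 intronic reads, but it is a much shorter gene than St6galnac3. Chst3 spans chr10:60181532-60219260 with 6497 exon bases, and St6galnac3 spans chr3:153198266-153725174 with 8994.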
